A study of Homo sapiens with 6 samples.

Results

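UVC irradiation without photoreactivation was compared with no treatment in HaCaT cells, an immortalised line of human keratinocytes. The members described are the genes that reached 1 corrected RPKM (cRPKM) in at least 2 of the 4 libraries compared, which were 11816 of the 19493 genes with values. Every group of the series expressed a CPD photolyase taken from the marsupial Potorous tridactylus, an enzyme that splits these lesions in visible light. The 2 control libraries came from untreated cells whose photolyase was inactive. The 2 UVC libraries came from cells given 15 J/m2 at 254 nm with the photolyase inactive, harvested 6 h later. A group of 2 further libraries, in which 2 h of white light activated the photolyase after UVC, entered the model only to share the estimate of spread. Nothing in the labels tells whether replicate libraries stem from different cultures, and p-values therefore reflect the library-to-library spread, which may be technical only. In RNA from whole cultures, fewer cells of a kind and less RNA in each cell cannot be told apart.

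UVC joins neighbouring pyrimidines of DNA into cyclobutane pyrimidine dimers (CPDs) and other photoproducts. An RNA polymerase II that meets such a lesion on the transcribed strand stalls, and transcription-coupled nucleotide excision repair removes the lesion. A long transcription unit offers more targets to a given dose than a short one. Keratinocytes are the cells of the skin that meet ultraviolet light, and they answer it with stress kinase signalling, cytokine release and, at high doses, apoptosis.

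Total counts were 70005705 and 69585649 in control and 58420526 and 57669389 after UVC, and 10857 and 10953 genes reached 1 cRPKM in control against 11667 and 11661 after UVC. Replicates correlated at r = 0.998 in both groups (log2(cRPKM + 1) across genes), and the lowest correlation between a control and a UVC library was 0.900. The keratinocyte identity of the label was borne by the markers: all 10 keratinocyte markers were tested, and their summed level was 12948 and 12194 cRPKM in control and 14227 and 13878 after UVC. Most of that sum was KRT14, SFN and KRT5, and with TMM 2 of the 10 were higher and 7 lower, among them DSG3 (-2.95), ITGA6 (-1.93) and TP63 (-1.68). Markers of melanocytes summed to at most 2.06 cRPKM and those of fibroblasts to at most 10.8 in any of the 4 libraries, and TYR, MS4A1 and CD1A had no reads. Immune markers summed to 129 and 117 cRPKM in control and 215 and 217 after UVC, most of it from CD74, the invariant chain of class II antigen presentation, which keratinocytes can also express.

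The comparison asked which transcripts changed 6 h after UVC when CPDs were not split by light. Most genes differed, and 1670 of the 11816 were not called with TMM. With TMM scaling (trimmed mean of M values), which sets the bulk of genes near 0, 5036 genes were higher after UVC (42.6% of those tested) and 5110 were lower (43.2%) by edgeR's quasi-likelihood test at an adjusted p under 0.05. With scaling by library totals, which is how the deposited cRPKM is made, 7068 genes were higher (59.8%) and 3496 were lower (29.6%). The totals moved each fold change up by nearly the same amount, 0.42 on the log2 scale, and the median change was 0.005 with TMM and 0.43 with totals. Both scalings gave the same direction for 5036 higher and 3496 lower genes, together 72.2% of those tested, and 534 genes were lower with TMM but higher with totals. Neither scaling measures RNA per cell. Log2 fold changes below are on the TMM scale, given ± SE, unless totals are named, and levels are the deposited cRPKM, so a level ratio follows the totals.

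**Figure D1:**
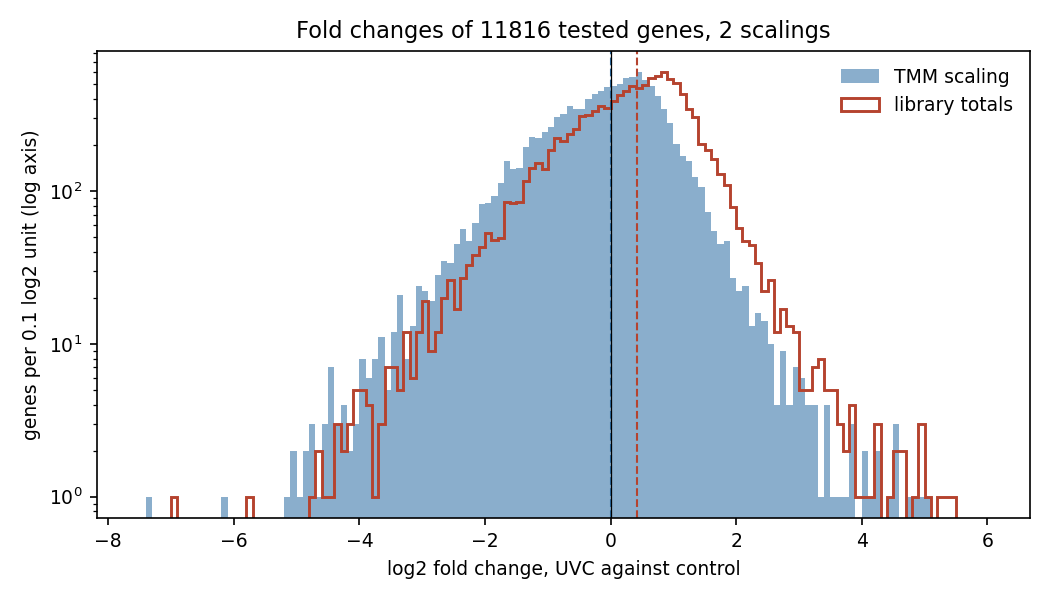
Number of tested genes (y axis, log scale) by log2 fold change of UVC against control (x axis, bins of 0.1), with TMM scaling (blue bars) and library totals (red outline). Dashed lines mark the medians, 0.005 and 0.43, and the blue distribution has a longer tail to the left than to the right.

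Large falls outnumbered large rises with TMM. At least 2-fold differences were called for 1162 higher and 2187 lower genes, at least 4-fold for 164 and 580, and at least 8-fold for 41 and 150. With totals, the order turned at 2-fold (2793 higher and 1275 lower), and at 4-fold the counts were 350 and 326. At 8-fold or more, falls led with both scalings (66 higher and 82 lower with totals). Genes that were lower after UVC took 64.5 and 65.1% of all counts in control and 39.9 and 40% after UVC. The genes at least 2-fold lower took 36.5 and 37% of counts in control and 13.9 and 14% after UVC. SERPINB2 alone, which encodes plasminogen activator inhibitor 2, went from 1.61 and 1.54% of counts to 0.163% in each UVC library. Levels of UVC and control libraries did not overlap for 10948 genes (92.7%, scaled cRPKM). Of the tested genes, 836 passed the level filter only through the UVC libraries and 191 only through control, and such genes had to differ: 756 of the 836 were called higher and 189 of the 191 lower.

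Among called genes at 5 scaled cRPKM or more in the higher group and without overlap, cytokine, chemokine and interferon genes made up 8 of the 12 largest rises. A further 3 of the 12 have an identifier but no symbol in the tables used and are not named. TNF, the tumour necrosis factor, stood at 0.650 and 0.850 cRPKM in control and at 25.1 and 22.2 after UVC, a log2 change of 4.56 ± 0.12 (adjusted p = 5.37e-13). TNF passed the level filter only through the UVC libraries, so the filter set its direction and the p-value is no separate support. IFNB1, interferon beta, went from 1.23 and 0.980 to 27.3 and 24.2 (4.12 ± 0.14, adjusted p = 5.99e-12). In both genes the UVC libraries lay far above the control libraries. The lambda interferons IFNL2, IFNL3 and IFNL1 rose by 3.83 ± 0.13, 4.0 ± 0.28 and 3.06 ± 0.11, but IFNL2 and IFNL3 are near-identical copies whose reads can be divided between them. IFNL3 also rested on 5 and 15 reads in control, and leaving out a control library moved its log2 change to between 3.42 and 4.99. ZNG1C also rose, from 0.190 cRPKM in each control library to 7.73 and 6.97 (4.84 ± 0.29), and it too has near-identical copies. Like TNF, ZNG1C passed the level filter only through UVC.

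Under the same limits, the 12 largest falls were in genes that spanned from 29.3 kb (HAS2) to 573 kb (MAST4). ARHGAP20, which encodes a GTPase-activating protein and spans 136 kb, had 2433 and 2750 reads in control and 15 and 20 after UVC (5.66 and 6.44 cRPKM against 0.0400 and 0.0600; log2 change -7.35 ± 0.15, adjusted p = 6.48e-14). BMP6, a bone morphogenetic protein gene of 155 kb, went from 6.58 and 7.42 cRPKM to 0.130 in each UVC library (-6.17 ± 0.14). MACC1, a regulator of MET expression, went from 104 and 113 cRPKM to 4.14 and 4.52 (-5.07 ± 0.07). TGFA, an EGF receptor ligand, stood at 121 and 124 in control and 5.75 and 6.04 after UVC (-4.80 ± 0.06). HS3ST2, a heparan sulphate sulphotransferase, went from 221 and 222 to 11.8 in each (-4.65 ± 0.06), and HAS2, a hyaluronan synthase, from 124 and 129 to 5.72 and 6.74 (-4.76 ± 0.09). PGBD5, RAPGEF2, CAPN14, AKAP12, MAST4 and LMO7 completed the 12 largest falls, with log2 changes from -5.14 to -4.57.

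A smaller set crossed from low to clear expression or back. Under 1 cRPKM in both control libraries and at 5 or more in both UVC libraries were 11 genes, among them TNF, ZNG1C, GADD45G (a stress-induced binding partner of MAP3K4; 0.60 and 0.740 to 5.22 and 5.32), HOXC9 (0.60 and 0.930 to 5.08 and 5.35), CCDC146, ZMYM3, TMEM37 and DLEU1. The reverse held for 15 genes. They included PDE4D, a cAMP phosphodiesterase gene of 1553 kb (6.67 and 6.80 to 0.630 and 0.590), the neuron navigator gene NAV3 (6.89 and 8.38 to 0.710 and 0.720), SLC5A1, a sodium-glucose transporter (11.4 and 11.5 to 0.670 and 0.770), PDCD1LG2, a ligand of PD-1 (8.53 and 8.75 to 0.790 and 0.910), and the metalloproteinase gene PAPPA (5.50 and 7.01 to 0.650 and 0.640). Both sets follow from their thresholds, so their sizes are given as a description.

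**Figure D2:**
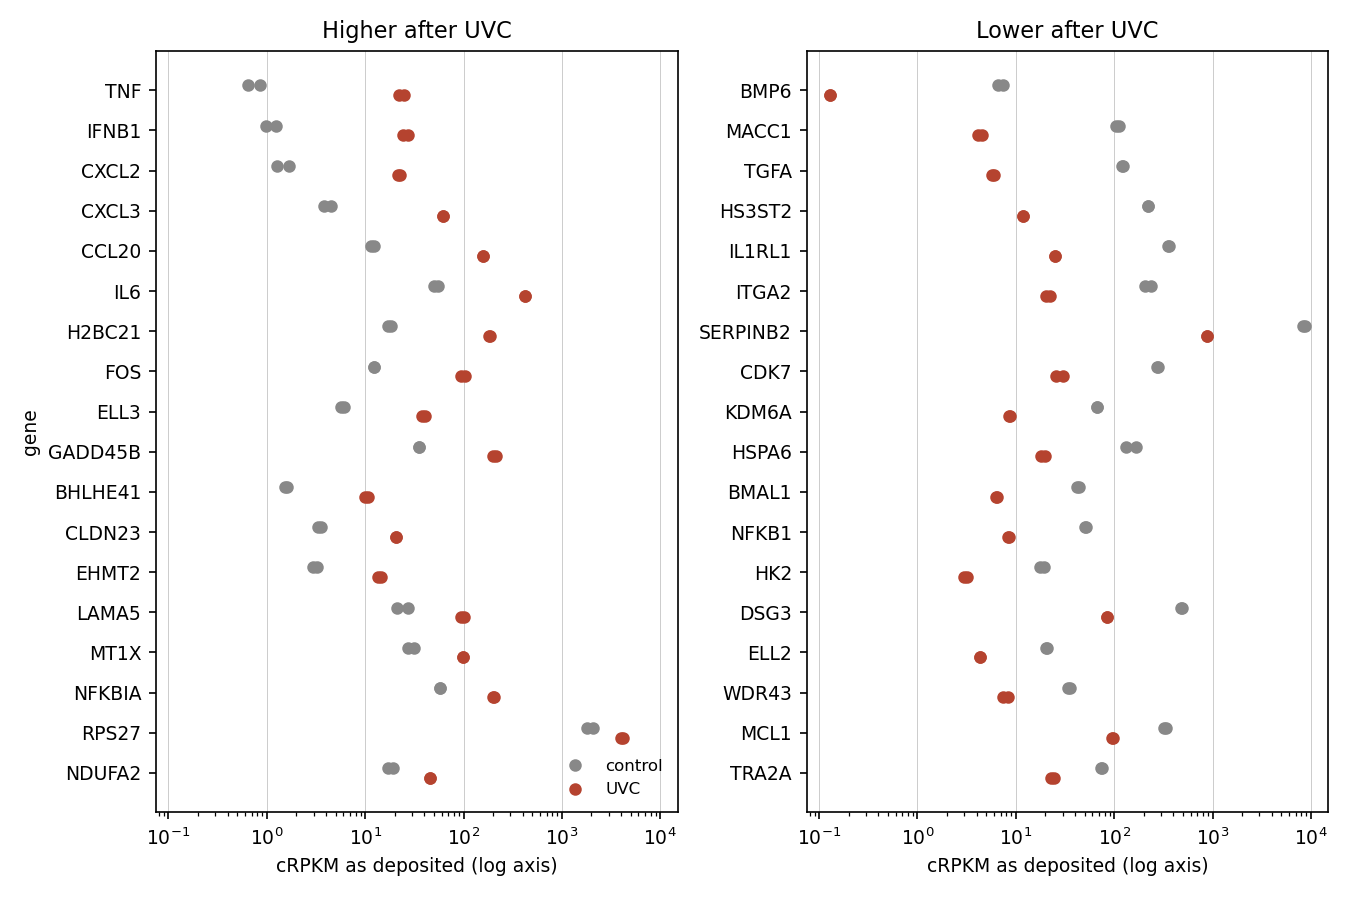
Deposited cRPKM (x axis, log scale) of 18 genes that were higher (left) and 18 that were lower (right) after UVC, with 1 point per library, control in grey and UVC in red. The replicates of a group lie close together against the gap between the groups, as for SERPINB2 at 8655 and 8239 in control and 876 and 874 after UVC.

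Direction followed the genomic span of the gene, taken from GENCODE v29 for 11622 tested genes. Genes under 5 kb had a median log2 change of 0.46, and 65.9% were higher against 20.7% lower. The median fell through 0.31 at 5 to 10 kb, 0.10 at 10 to 20 kb, -0.13 at 20 to 50 kb and -0.23 at 50 to 100 kb, to -0.29 at 100 to 200 kb, where 31.8% were higher and 54.3% lower. Genes of 200 kb and over did not extend the trend, with a median of -0.07, 37.9% higher and 46.8% lower. With library totals the order of the bins was the same, with medians of 0.88 under 5 kb, 0.13 at 100 to 200 kb and 0.36 at 200 kb and over, all above 0, so that "lower" for the long bins is relative to the bulk. At least 2-fold falls were found in 58 of 1103 genes under 5 kb and in 369 of 1325 genes of 100 to 200 kb. When only genes averaging 5 cRPKM or more over the 4 libraries were kept, a description added after the data were seen, the medians were 0.39, 0.23, -0.00, -0.22, -0.43, -0.52 and -0.24 from the shortest to the longest bin. Across genes the rank correlation of span with change was -0.24 (n = 11622 genes, which share libraries and are not replicates).

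**Figure D3:**
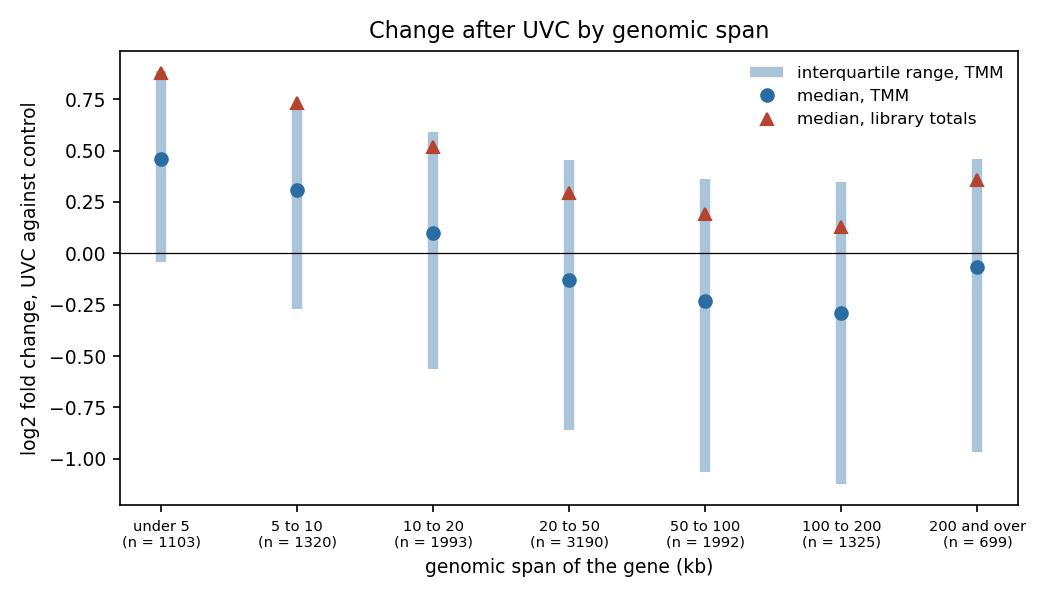
Log2 fold change of UVC against control (y axis) by genomic span (x axis, kb, with the number of genes). Blue points and bars are the median and interquartile range with TMM, and red triangles the median with library totals; the TMM median goes from 0.46 under 5 kb to -0.29 at 100 to 200 kb and is -0.07 at 200 kb and over.

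Span was not the only property that moved with the change. Rank correlations across genes were -0.386 for control cRPKM, -0.275 for effective transcript length and -0.27 for 3'UTR length. GC percent of the longest coding transcript had 0.248, beside -0.243 for span. Transcript length gave a like gradient, from a median of 0.42 for effective lengths under 1 kb to -0.43 for 5 kb and over. At spans under 50 kb, genes with more exons were higher: among genes of 5 to 20 kb the median went from 0.11 with up to 5 exons to 0.37 with over 20, and among those of 20 to 50 kb from -0.25 to 0.12. At 50 to 100 kb the medians showed no such order (-0.18 with up to 5 exons, -0.32 with 6 to 10, -0.27 with 11 to 20 and -0.10 with over 20), and at 100 kb and over they went from -0.36 to -0.15. Genes whose 3'UTR held the AU-rich nonamer TTATTTATT, the core of an element that marks unstable mRNAs, had a median of -0.36 (n = 1024) against 0.02 for those without it (n = 10425). The difference was present under 20 kb (0.01 against 0.28) and at 20 kb and over (-0.45 against -0.15). Genes with and without the nonamer were not compared at equal 3'UTR lengths, so its part beside 3'UTR length was not tested. With library totals the nonamer genes' median was 0.06, on the other side of 0. Genes low in control were higher after UVC and abundant ones lower, with a median of 1.11 under 1 cRPKM, where 836 of 945 had passed the filter only through UVC, and -0.26 at 100 cRPKM and over. Chromosomes with short genes stood highest, with medians of 0.16 on chromosome 19 and 0.15 on chromosome 17 (median spans of 15.8 and 18.4 kb), and chromosomes 18 and 4 lowest, at -0.40 and -0.25 (51.3 and 52.8 kb). These properties are related to each other, and their separate parts in the change were not tested.

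The extremes show the same contrast. The 164 genes at least 4-fold higher had a median span of 7.80 kb, and 25 of them (15.2%) had a single exon, against 2.17% of all tested genes. The 580 genes at least 4-fold lower had a median span of 75.9 kb, 36.7% of them spanned 100 kb or more, and 17% held the nonamer, against 17.1% and 8.90% of all tested genes. The median 3'UTR was 714 bases in the 164 genes and 2228 in the 580, beside 1227 for all tested genes. Of the 164, 115 had passed the filter only through UVC.

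The transcriptome was then read through 85 lists of pathways and families, which held 2585 symbols with repeats, of which 2366 were tested. Counts of a list are read against the 42.6% higher and 43.2% lower of all tested genes, and a share near these is no result about the list. List medians stand beside the median of all genes, 0.005 with TMM and 0.43 with totals. They were below 0 with both scalings for 26 lists, above 0 with both for 33, and below 0 with TMM but above 0 with totals for 26. Replication-dependent histones and chemokines had the highest medians, and serpin B genes, MAP kinase phosphatases, desmosomes and SR proteins the lowest.

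**Figure D4:**
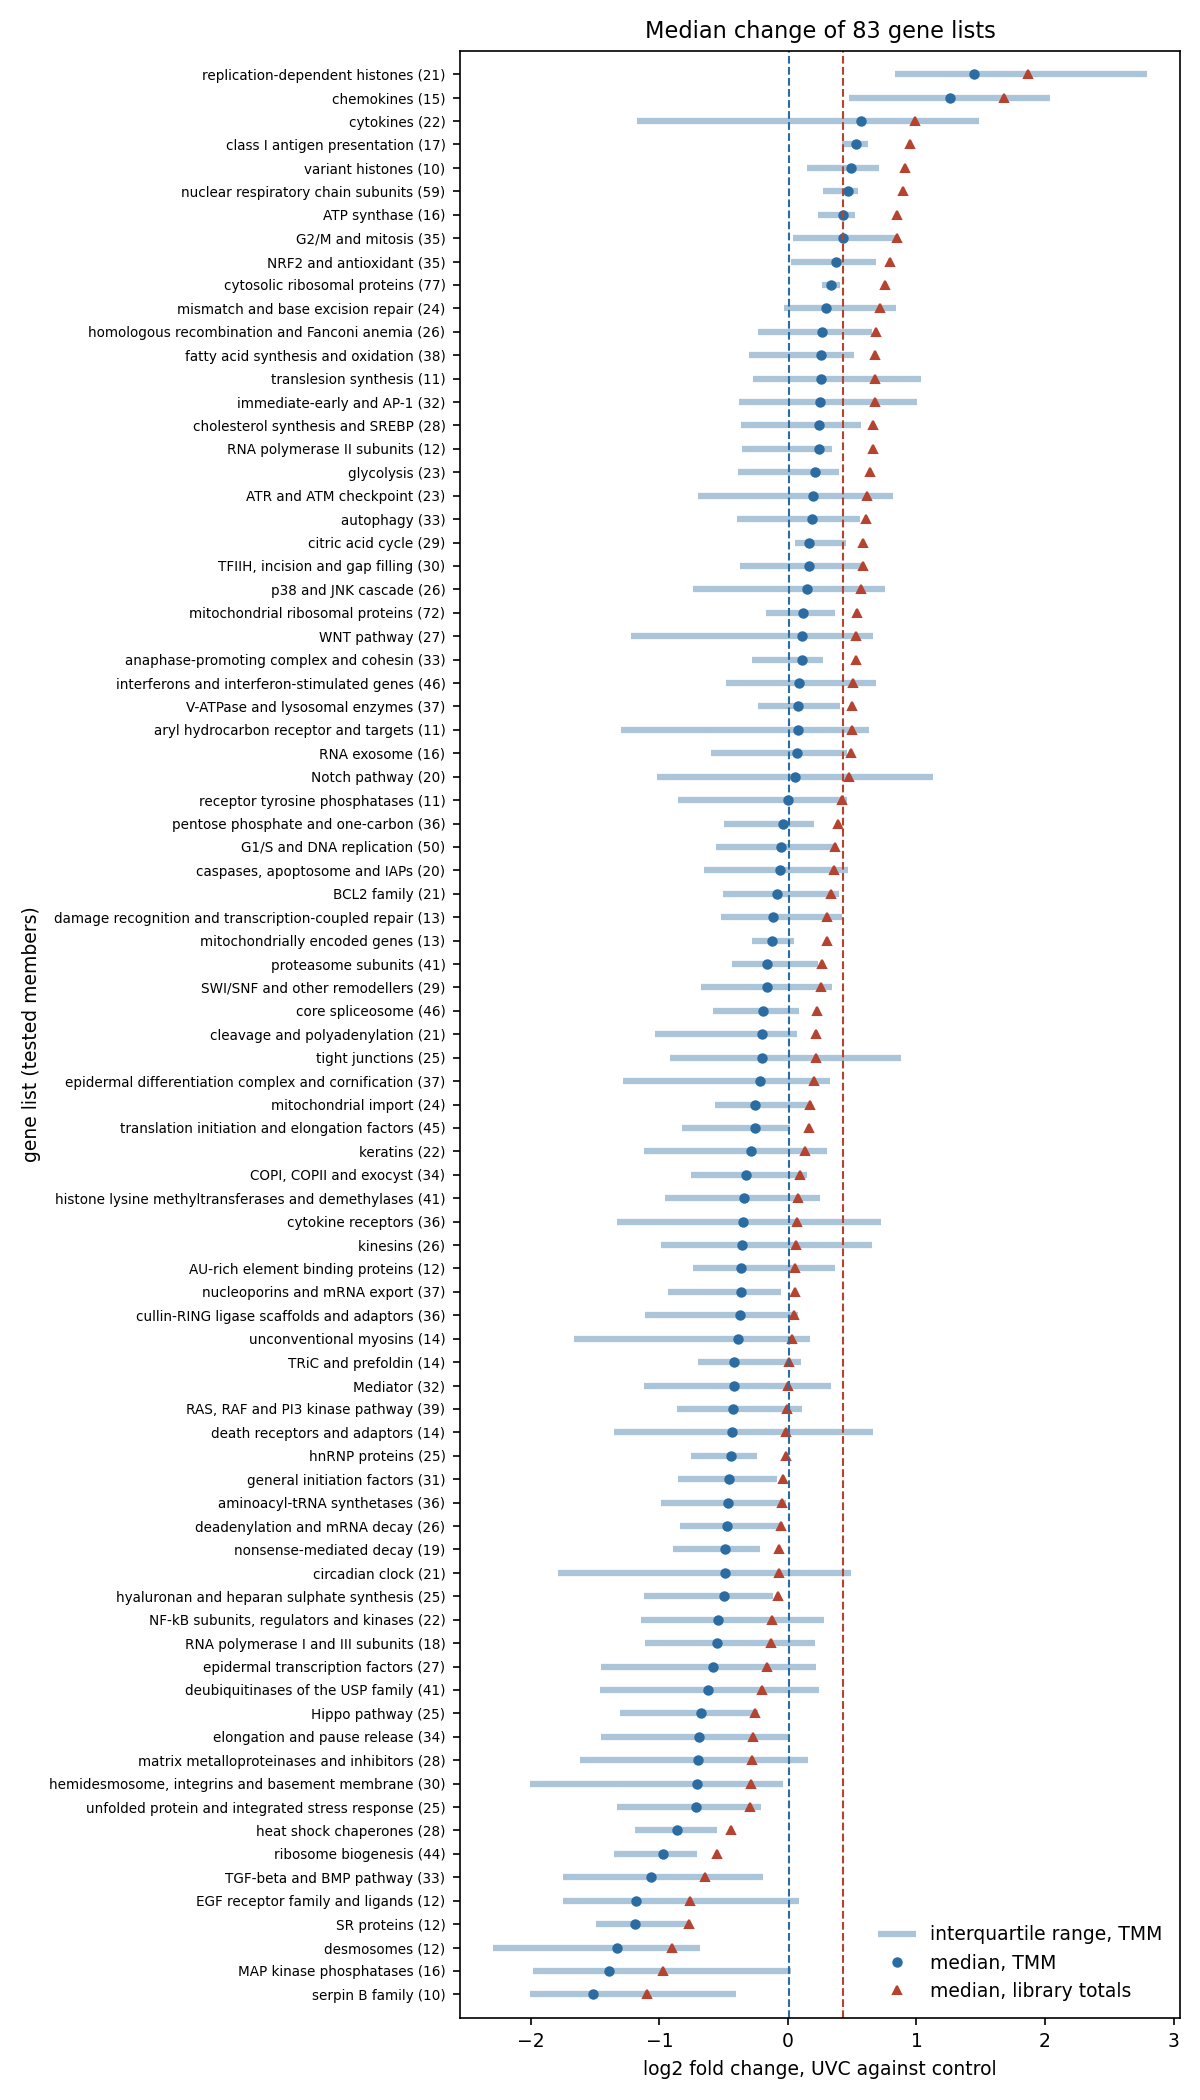
Median log2 fold change of UVC against control (x axis) for 83 of the 85 gene lists (y axis, with the number of tested members), sorted by the TMM median. Blue points and bars are the median and interquartile range with TMM, red triangles the median with library totals, and dashed lines the medians of all tested genes; the medians run from -1.52 for the serpin B family to 1.45 for replication-dependent histones.

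Among inflammatory ligands, most chemokines rose and the cytokines were divided. Of the 15 listed chemokines tested, which draw leukocytes along a gradient, 14 were higher and 1 was lower (CXCL16, which was higher with totals), with a median of 1.26. The list leaves out some tested chemokine genes, and 2 of the 15 had passed the filter only through UVC. By symbol stem, 8 of 10 CXCL genes were higher and 2 lower, 1 of them at least 2-fold lower. Of 10 CCL genes, 9 were higher and 1 lower, but 3 of the 10 had passed the filter only through UVC and had to differ. CXCL2 went from 1.26 and 1.69 cRPKM to 21.5 and 22.4 (log2 change 3.47 ± 0.13) and CXCL3, a close copy with which it can share reads, from 3.85 and 4.45 to 61.2 and 61.7 (3.47 ± 0.10). CCL20, the ligand of CCR6, went from 11.5 and 12.3 to 157 in each (3.30 ± 0.08). CCL2, which draws monocytes, rose from 85.2 and 70.4 to 432 and 397 (1.99 ± 0.08). CXCL8, the most abundant of the list in control, moved least among those that rose, from 363 and 361 to 570 and 606 (0.28 ± 0.05). Of 22 cytokines, 12 were higher and 9 lower, with 3 of the 22 passing the filter only through UVC and 1 only through control. IL6 rose from 49.9 and 55.6 to 417 and 422 (2.57 ± 0.06) and TNFSF9, the ligand of 4-1BB, from 12.8 and 12.1 to 65.8 and 63.4 (1.96 ± 0.06). The alarmin IL33 fell by 2.37, and the receptor antagonists IL1RN (727 and 706 to 248 and 239) and IL36RN fell by 1.98 and 2.23. Among the agonists, named here after their values were seen, IL1A and IL1B rose by 1.62 and 1.17 and IL36G, which IL36RN opposes, fell by 1.22.

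Promoter sequences of these genes are shown because the chemokines that rose together often hold a common motif. RefSeq promoters (GRCh38.p14, 250 bases before to 50 after the gene start) were matched by symbol for 9369 tested genes, and the NF-kB-like motif GGNNTTTCC was searched on both strands. It occurred in 7.03% of these promoters and in 6.26% of all 27305 promoters of that table. Among called genes it occurred in 7.5% of 3947 higher and in 6.95% of 4141 lower, near the share of all tested. It occurred in 16 of 106 genes at least 4-fold higher (15.1%) and in 30 of 461 at least 4-fold lower (6.51%). The 16 included CXCL1, CXCL2, CXCL3, CCL20, IL6, IFNB1, IFNL2 and IFNL3, some of which are close copies of each other. The share of 15.1% is therefore not separate from the shares of chemokines and cytokines given next. The motif occurred in 9 of 13 chemokine promoters and in 1 of 17 cytokine promoters, that of IL6. All 13 chemokine genes were higher, so no chemokine that fell could be compared. The TATA-like motif TATAAA, on either strand, occurred in 5.96% of tested promoters and in 12% of all 27305. It occurred in 6.16% of promoters of higher genes and in 5.75% of those of lower genes. At least 4-fold higher genes held it in 18.9% and at least 4-fold lower genes in 9.11%. The motifs TGACGTCA (CRE) and CACGTG (E-box) were searched too and occurred in 3.32% and 10.1% of tested promoters. Genes at least 4-fold higher held them in 1.89% and 9.43%, and genes at least 4-fold lower in 4.56% and 9.33%. A match is a description of the sequence and shows no binding. Windows of 50 bases on each side of the match nearest the start are printed 5′ to 3′ on the strand of the gene, with every match in the window in capitals, for 5 genes that rose and for RIGI, which holds a match and fell.
CXCL2, chr4:74099190-74099298, minus strand: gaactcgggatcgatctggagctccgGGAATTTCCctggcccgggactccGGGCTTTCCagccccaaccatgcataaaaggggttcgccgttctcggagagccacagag
CXCL3, chr4:74038684-74038792, minus strand: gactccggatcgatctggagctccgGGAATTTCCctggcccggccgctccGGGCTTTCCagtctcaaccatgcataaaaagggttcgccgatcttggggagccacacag
CCL20, chr2:227813713-227813821, plus strand: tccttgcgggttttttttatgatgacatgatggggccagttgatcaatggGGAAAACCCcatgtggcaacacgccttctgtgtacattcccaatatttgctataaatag
IL6, chr7:22727078-22727186, plus strand: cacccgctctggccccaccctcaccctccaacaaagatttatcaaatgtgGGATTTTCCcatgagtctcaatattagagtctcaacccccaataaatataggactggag
IFNB1, chr9:21077949-21078057, minus strand: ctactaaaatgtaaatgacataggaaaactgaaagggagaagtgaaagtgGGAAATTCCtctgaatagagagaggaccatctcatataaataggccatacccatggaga
RIGI, chr9:32526214-32526322, minus strand: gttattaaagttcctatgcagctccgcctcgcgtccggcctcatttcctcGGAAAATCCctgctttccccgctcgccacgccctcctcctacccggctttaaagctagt
In CXCL2 and CXCL3 the match nearest the start begins 53 bases before it and a second match lies in the same window, and in CCL20, IL6, IFNB1 and RIGI the match begins 79, 72, 65 and 76 bases before the start.

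Regulators of NF-kB were lower more often than higher. Of 22 subunits, inhibitors and kinases, 6 were higher and 14 lower, with a median of -0.55 (-0.13 with totals). NFKBIA, the inhibitor of NF-kB that NF-kB itself induces, rose from 58.2 and 58.1 cRPKM to 204 and 199 (1.37 ± 0.05), and NFKBIZ rose by 1.29. NFKB1, the gene of the p105 precursor, fell from 50 and 52.1 to 8.33 and 8.56 (-3.02 ± 0.05). TRAF6 fell by 2.11 and TNFAIP3, the A20 deubiquitinase, by 1.81. Of 36 cytokine receptors and signal transducers, 13 were higher and 20 lower, with a median of -0.35 (0.07 with totals). IL1RL1, the receptor of IL33, fell from 353 and 360 to 25.3 and 24.8 (-4.25 ± 0.06), and the decoy receptors IL13RA2 and IL1R2 fell by 4.45 and 3.33. SOCS3, a feedback inhibitor of cytokine signalling, rose by 1.30.

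The type I and III interferon genes rose, but the list that holds them together with the genes interferon induces did not move as a block. Of its 46 members, 23 were higher and 17 lower, with a median of 0.08. Genes with an IFI symbol stem leaned higher (8 higher and 0 lower of 9, median 0.66). RIGI, a sensor of viral RNA, fell from 49.5 and 60.8 cRPKM to 24.7 and 28.0 (-1.49 ± 0.09), and ISG20, a ribonuclease, fell by 1.46. IRF1, ISG15 and BST2, named after their values were seen, rose by 1.36, 0.91 and 0.97, and MX1 and IFIH1 fell by 0.84 and 0.82. Control replicate 2 was above control replicate 1 for all 7 of these genes (RIGI 60.8 against 49.5), and in each of the 7 the UVC libraries lay on the same side of both. Class I antigen presentation moved more evenly, with 14 of 17 genes higher and 3 lower (median 0.53). ERAP2, an aminopeptidase that trims peptides, rose from 1.00 and 1.03 to 6.07 and 6.23 (2.18 ± 0.07), and the immunoproteasome subunits PSMB8 and PSMB9 rose by 0.77 each. NLRC5, the class I transactivator, fell by 0.68.

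In the transcription apparatus, RNA polymerase II subunits went both ways and most initiation factors were lower with TMM. Of 12 polymerase II subunits, 7 were higher and 4 lower, with a median of 0.24. POLR2G and POLR2L rose by 0.52 and 0.48, and POLR2B, the second largest subunit, fell from 19 and 18.1 cRPKM to 8.09 and 9.21 (-1.52 ± 0.07). POLR2A, the largest subunit, stood at 50.4 and 63.3 in control and 59.4 and 51.9 after UVC, and the levels of the groups overlapped. Its log2 change of -0.45 ± 0.09 passed the test with TMM and was -0.03 with totals, where it was not called. General initiation factors were mostly lower (5 higher and 22 lower of 31, median -0.46), and so was Mediator (9 and 20 of 32, median -0.42), but with totals both medians were near 0 (-0.04 and 0.003). GTF2A1 and GTF2E1 fell by 2.41 and 2.14 and MED17 and MED13 by 1.95 and 1.94, whereas MED11 and MED12 rose by 0.79 and 0.73.

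CDK7, the kinase of TFIIH that phosphorylates the polymerase tail, fell from 279 and 271 cRPKM to 25.7 and 30.3 (-3.72 ± 0.08, adjusted p = 5.44e-14). Its partners in the same subcomplex, read for comparison, did not share this: CCNH stood at 18.5 in each control and 23.2 and 25 after UVC (-0.04 ± 0.06, adjusted p = 0.525) and MNAT1 at 8.70 and 8.36 against 12 and 12.7 (0.11 ± 0.06, adjusted p = 0.111). The control level of CDK7 per length stood far above that of both partners, and whether reads of other transcripts were counted there was not tested. Elongation and pause-release factors were lower as a list (6 higher and 21 lower of 34, median -0.69, -0.27 with totals). ELL2 and AFF4, parts of the super elongation complex, fell by 2.68 and 1.92, and ELL by 1.76. ELL3 rose from 6.11 and 5.74 to 40.2 and 38 (2.30 ± 0.08), and HEXIM1, the inhibitor of P-TEFb, rose from 13.4 and 14.3 to 35.4 and 33.9 (0.90 ± 0.05). Of 18 subunits of polymerases I and III, 5 were higher and 12 lower.

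Chromatin enzymes were spread widely. Among 41 histone lysine methyltransferases and demethylases, 12 were higher and 22 lower (median -0.34, 0.08 with totals). EHMT2, which methylates histone H3 at lysine 9, rose from 3.22 and 2.97 cRPKM to 14.4 and 13.4 (1.74 ± 0.07), and EZH1 rose by 1.19. KDM6A, an X-linked demethylase gene of 239 kb, fell from 67.3 and 66.8 to 8.57 and 8.63 (-3.38 ± 0.06), and KDM7A and SETD1B fell by 2.65 and 2.35. Of 29 remodellers, 9 were higher (CHD3 by 1.02, SMARCA2 by 1.01) and 16 lower (CHD1 and INO80 fell by 2.48 and 1.58), with a median of -0.16 that was 0.26 with totals.

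Genes of RNA processing were lower for the most part. Of 12 SR proteins, which bind exons and promote splicing, 10 were lower and 2 higher, with a median of -1.19 (-0.77 with totals). TRA2A fell from 72.6 and 74.4 cRPKM to 23.1 and 24.3 (-2.05 ± 0.05), TRA2B by 1.77 and SRSF7 by 1.5, while SRSF11 and SRSF9 rose by 0.25 and 0.20. Of 25 hnRNP proteins, 20 were lower and 3 higher (median -0.44, -0.02 with totals), with PTBP3 and SYNCRIP falling by 2.37 and 1.90. The core spliceosome moved less, with 25 of 46 lower, 11 higher and a median of -0.20 that was 0.23 with totals. Its small LSM2 and LSM4 rose by 0.99 and 0.65, and the helicase DHX15 fell by 1.72. Of 26 deadenylation and decay factors, 16 were lower and 4 higher, DDX6 falling by 2.09 and PAN2, TOB1 and BTG2 rising by 1.17, 0.96 and 0.89. Among 12 proteins that act on AU-rich mRNAs, 4 were higher and 8 lower (median -0.37, 0.06 with totals). ZFP36, tristetraprolin, rose from 51.7 and 52.9 to 152 and 149 (1.10 ± 0.05) and the RNase ZC3H12A from 17.3 and 17.2 to 56.5 and 52.5 (1.24 ± 0.06).

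Most ribosomal proteins rose and most ribosome biogenesis factors fell. Of 77 cytosolic ribosomal proteins, 71 were higher and 0 lower by edgeR, with a median of 0.34 and a narrow spread, and all 77 were higher with totals. RPS27 went from 2057 and 1800 cRPKM to 4018 and 4149 (0.66 ± 0.06), and RPS28 and RPS25 rose by 0.62 and 0.56. Of 44 ribosome biogenesis factors, which process rRNA in the nucleolus, 38 were lower and 1 higher, with a median of -0.97 (-0.55 with totals). WDR43 fell from 34.2 and 35.3 to 7.42 and 8.31 (-2.56 ± 0.06), the helicase DDX21 from 149 and 153 to 56.1 and 57.9 (-1.82 ± 0.05) and UTP15 by 1.82, and NHP2 rose by 0.21. The median span was 5.50 kb for the ribosomal protein genes and 17.8 kb for the biogenesis genes. Translation factors were mostly lower (28 of 45, 7 higher, median -0.26, 0.16 with totals), with the cap-binding EIF4E falling by 1.72 and EIF3A by 1.63. Of 36 aminoacyl-tRNA synthetases, 25 were lower and 9 higher (median -0.47, -0.05 with totals), GARS1 falling from 193 and 192 to 99.8 and 101 (-1.36 ± 0.05).

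Most chaperones fell. Of 28 heat shock chaperones, 26 were lower and 2 higher, with a median of -0.86 (-0.44 with totals). HSPA8, the constitutive HSC70, went from 1273 and 1336 cRPKM to 516 and 536 (-1.73 ± 0.06), HSPH1 fell by 1.89, and HSPA6 went from 130 and 168 to 18.2 and 19.7 (-3.40 ± 0.11). HSPA6 belongs to the near-identical HSP70 genes, so that its own level is uncertain. HSPA2 and HSPB1 rose by 1.02 and 0.63. Of 25 genes of the unfolded protein and integrated stress response, 21 were lower and 2 higher (median -0.72, -0.30 with totals), the sensors EIF2AK3 and ERN1 falling by 2.65 and 2.29 and SEL1L by 2.05. EIF2AK1, the haem-regulated kinase of the same pathway, rose by 0.62. Of 41 genes with a USP symbol, nearly all ubiquitin-specific proteases, 26 were lower and 12 higher, and USP43 and USP53 fell by 2.36 and 1.98. The largest fall of that list, 2.93, was that of USP6NL, a GTPase-activating protein and no protease. Among cullin-RING ligases, NEDD8 and RNF7 rose by 0.67 and 0.72, and the substrate adaptors BTRC and FBXW7 (genes of 203 and 216 kb) fell by 2.19 and 2.17. Autophagy genes were divided, 17 of 33 higher and 13 lower (51.5 and 39.4%), with ULK1, the starting kinase, rising from 2.05 and 2.24 to 7.64 and 7.57 (1.41 ± 0.06) and ATG16L1 falling from 23.4 and 24.3 to 5.11 and 5.33 (-2.61 ± 0.06).

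Most nuclear genes of oxidative phosphorylation rose. Of 59 respiratory chain subunits, 50 were higher and 2 lower, with a median of 0.47. NDUFA2 of complex I went from 19.1 and 17.1 cRPKM to 46.0 in each UVC library (0.92 ± 0.07), and UQCR10 and NDUFB1 rose by 0.78 and 0.75. Of 16 ATP synthase genes, 15 were higher and 0 lower by edgeR (median 0.43), ATP5MC1 rising from 59.6 and 54.6 to 138 and 135 (0.84 ± 0.06). The 13 protein genes of the mitochondrial DNA, which is not transcribed by RNA polymerase II, were 3 higher and 4 lower with a median of -0.12, and with totals 9 were higher and 0 lower, median 0.30. Their share of counts was 3.32 and 3.92% in control and 5.13 and 5.28% after UVC. Mitochondrial ribosomal proteins were 36 higher and 20 lower of 72, and mitochondrial import genes 6 higher and 13 lower of 24 (median -0.25, 0.17 with totals), with TOMM7 rising by 0.77.

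Repair genes for UV lesions were divided. Of 13 genes of damage recognition and transcription-coupled repair, 5 were higher and 7 lower (median -0.12, 0.31 with totals). DDB2 and XPC, which find lesions across the genome, rose from 26.3 and 22.9 cRPKM to 53.4 and 55.0 (0.72 ± 0.06) and from 4.40 and 4.07 to 7.87 and 7.27 (0.42 ± 0.07). ERCC6, the CSB protein that starts repair at a stalled polymerase, stood at 1.87 and 2.08 in control and 1.83 and 1.86 after UVC, and its change of -0.52 ± 0.07 was -0.10 and not called with totals. USP7, which stabilises that complex, fell by 1.61. Among 30 incision and gap-filling genes, 15 were higher and 10 lower. The incision gene ERCC5 (XPG) rose from 4.74 and 4.97 to 14.8 and 15.8 (1.23 ± 0.06), and ERCC1 fell from 81.5 and 77.9 to 41.5 and 40.9 (-1.37 ± 0.05). Base excision and mismatch repair genes were 13 higher and 5 lower of 24, NEIL1 rising by 1.64 and UNG by 0.91, while TDG fell by 1.46. In the ATR and ATM checkpoint, 12 of 23 were higher and 11 lower, TP53BP1 and MRE11 rising by 1.11 and 1.14 and the phosphatase CDC25A falling by 2.00. Homologous recombination and Fanconi anemia genes were 14 higher and 7 lower of 26, but 6 of the 26 had passed the filter only through UVC.

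Growth arrest and apoptosis genes were divided. CDKN1A, which encodes the cyclin-dependent kinase inhibitor p21, fell from 616 and 594 cRPKM to 316 and 320 (-1.35), and the ubiquitin ligase MDM2 from 7.86 and 8.23 to 4.42 and 4.81 (-1.22). The cytokine GDF15 rose by 1.14, and SESN2 and TIGAR fell by 2.00 and 1.88. In the BCL2 family of 21 genes, 9 were higher and 10 lower (42.9 and 47.6%, near the shares of all tested genes; median -0.09, 0.33 with totals). The death-promoting BBC3 and BAD rose by 1.38 and 0.98, and the survival genes MCL1 (321 and 337 to 94.3 and 97.9) and BCL2L1 (158 and 148 to 48.4 and 49.3) fell by 2.20 and 2.07, but the death-promoting BCL2L11 fell too, by 1.64. CFLAR, the inhibitor of caspase-8, fell by 1.92, and CASP9 fell by 1.23. The death ligand TNFSF10 (TRAIL) rose from 36.8 and 36.3 to 132 and 146 (1.51 ± 0.06), and its receptor TNFRSF10A fell from 50.2 and 50 to 10.9 and 11.3 (-2.60 ± 0.05).

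Most tested histone genes were higher, as were 21 of 35 mitotic genes. Of 65 replication-dependent histone genes listed, 27 were matched by symbol to a gene with values, which leaves out genes that carry an identifier only, and 21 were tested, of which 18 were higher and 1 lower, with a median of 1.45, and 5 of the 21 had passed only through UVC. H2BC21 rose from 18.3 and 17.3 cRPKM to 185 and 181 (2.94 ± 0.07) and H2BC26 from 1.12 and 1.24 to 11.8 and 10.3 (2.79 ± 0.21). H2AC21 had 0 reads in both control libraries and 33 and 27 after UVC, which is at least 12-fold higher on the totals scale against a floor of 3 counts per library. Histone genes are near-identical and most of their mRNAs lack a poly(A) tail, so single values are uncertain and depend on how the RNA was selected. Of 10 variant histones, 8 were higher, H1-10 going from 92.0 and 81.0 to 328 and 301 (1.44 ± 0.07). Of 35 G2/M genes, 21 were higher and 6 lower (median 0.43, 6 passing only through UVC), TOP2A and CDC20 rising by 1.11 and 0.91 and KIF23 falling by 1.96. G1/S and replication genes were 20 higher and 22 lower of 50 (median -0.05, 0.37 with totals), the inhibitor CDKN2B rising from 32.0 and 29.8 to 112 and 106 (1.39 ± 0.06) and E2F3 falling from 7.03 and 7.71 to 1.22 and 1.37 (-2.93 ± 0.08).

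Immediate-early genes were 17 higher and 13 lower of 32 (53.1 and 40.6%, beside 42.6 and 43.2% of all tested genes). FOS went from 12.4 and 12.2 cRPKM to 104 and 94.2 (2.59 ± 0.06), FOSB rose by 1.69, ATF3 by 1.36 and JUN by 1.22, while NR4A3, MAFK and MYC fell by 2.46, 2.40 and 1.62. MAP kinase phosphatases and Sprouty-type inhibitors, which switch these kinases off, were 11 lower and 4 higher of 16, with a median of -1.39 (-0.97 with totals). DUSP10 fell from 166 and 162 to 47.5 and 45.7 (-2.24 ± 0.05) and DUSP4 by 2.13, and DUSP1 rose from 66.0 and 64.0 to 125 and 120 (0.49 ± 0.05). Of 26 p38 and JNK genes, 13 were higher and 11 lower: GADD45B rose from 35.7 in each control to 211 and 198 (2.10 ± 0.07), and the kinases MAP2K4, MAPKAPK2 and MAP2K3 fell by 2.80, 2.68 and 2.15.

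EGF receptor, TGF-beta and Hippo genes were mostly lower, and Notch and WNT genes were divided. Of 12 EGF receptor genes and ligands, 7 were lower and 3 higher, with a median of -1.18 (-0.76 with totals). Besides TGFA, the ligands EREG and NRG1 fell by 2.12 and 1.99, EGFR itself fell from 95.3 and 105 cRPKM to 77.0 and 78.6 (-0.79 ± 0.06), and ERBB2 rose by 0.65. TGF-beta and BMP genes were 25 lower and 6 higher of 33, with a median of -1.06 (-0.64 with totals) and 5 members passing only through control. FST, the activin trap, fell from 662 and 658 to 161 and 162 (-2.45 ± 0.06) and the ligase SMURF1 by 2.61. The inhibitors SMAD6, ID2 and ID4 rose, ID2 from 11.7 and 11.2 to 47.9 and 49.4 (1.67 ± 0.05). Hippo genes were 19 lower and 4 higher of 25 (median -0.68, -0.26 with totals), TEAD1, VGLL3 and LATS2 falling by 2.80, 2.63 and 2.43 and TEAD2 rising by 1.23. Notch and WNT genes went both ways, 9 higher and 8 lower of 20 and 12 and 11 of 27. In Notch, JAG2 and HES1 rose by 1.54 and 1.20 and JAG1 fell by 1.84, and in WNT, WNT10A rose from 26.1 and 22.1 to 81.3 and 78.7 (1.31 ± 0.07) and WNT9A fell from 42.8 and 45.3 to 8.42 and 8.34 (-2.81 ± 0.05). TIAM1, a Rac exchange factor gene of 442 kb, fell from 8.93 and 9.36 to 0.950 and 1.00 (-3.65 ± 0.07), and PTPRE, a receptor phosphatase, by 3.47.

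Desmosome and integrin genes were mostly lower. Of 12 desmosome genes, 11 were lower and 1 higher, with a median of -1.33 (-0.91 with totals). DSG3, the desmoglein of basal cells, went from 494 and 478 cRPKM to 84.5 and 83.9 (-2.95 ± 0.06), DSC2 fell by 2.73 and DSG4 by 3.12, and PKP3 rose by 0.33. Integrins and basement membrane genes were 21 lower and 5 higher of 30 (median -0.71, -0.29 with totals). ITGA2 fell from 206 and 237 to 20.3 and 22.1 (-3.81 ± 0.08) and FERMT1, kindlin-1, from 256 and 263 to 39.7 and 40.0 (-3.13 ± 0.06), while the laminin chain LAMA5 rose from 20.9 and 27.1 to 102 and 93.9 (1.61 ± 0.09). At tight junctions the scaffold TJP1 (270 kb) and OCLN fell by 3.03 and 3.28, and the claudins CLDN23 and CLDN8 rose by 2.15 and 1.4. The list held 10 higher and 15 lower genes of 25, with a median of -0.20 that was 0.22 with totals. Of 10 serpin B genes, 8 were lower and 0 higher by edgeR (2 were not called), although 3 were higher with totals. SERPINB2 fell by 3.69 ± 0.07, SERPINB13 by 2.25 and SERPINB7 by 2.02.

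Keratins and differentiation genes were mixed, with 7 keratins higher and 13 lower of 22 (median -0.29, 0.13 with totals). KRT14, a keratin of basal cells, stood at 5424 and 5088 cRPKM in control and 5877 and 5662 after UVC, lower with TMM (-0.29 ± 0.06) and higher with totals (0.13). Its partner KRT5 rose from 2332 and 2114 to 3728 and 3669 (0.31 ± 0.06). KRT6A, a keratin of wounded epidermis, fell from 4087 and 3891 to 1911 and 1869 (-1.5 ± 0.05), with the near-identical KRT6B and KRT6C falling by 1.35 and 1.70, and KRT1, a keratin of differentiating cells, rose by 0.70. In the epidermal differentiation complex and cornified envelope, 11 were higher and 18 lower of 37 (median -0.22, 0.20 with totals). CASP14, S100A4 and S100A8 rose by 1.12, 1.02 and 0.97, and LCE1C, CRNN and SPRR3 fell by 3.04, 3.03 and 2.82. Of 27 epidermal transcription factors, 17 were lower and 7 higher (median -0.59, -0.16 with totals), with GRHL3, KLF5 and TP63 falling by 2.62, 2.06 and 1.68 and KLF4 rising by 0.98. Matrix proteases fell more than they rose (18 and 7 of 28), PLAUR, the urokinase receptor, going from 658 and 584 to 83.3 and 83.1 (-3.32 ± 0.07) and ADAM19 from 44.3 and 45.9 to 4.31 and 4.49 (-3.78 ± 0.06).

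Metabolic lists leaned both ways. Glycolysis was 13 higher and 7 lower of 23, with ENO2 rising by 1.55, GAPDH by 0.45 (1250 and 1129 cRPKM to 2172 and 2186), and hexokinase HK2 falling from 17.5 and 19.3 to 2.98 and 3.20 (-3.00 ± 0.07). Cholesterol synthesis was 16 higher and 8 lower of 28, MVK and MVD rising by 0.95 and 0.72. NPC1, which moves cholesterol out of lysosomes, fell by 3.00. Fatty acid genes were 20 higher and 12 lower of 38, SCD rising by 0.70 and the receptor PPARD falling by 3.01. Pentose phosphate, nucleotide and one-carbon genes were 12 higher and 15 lower of 36 (median -0.04, 0.39 with totals), and CTPS1, UMPS and MTHFD2 fell by 2.45, 2.24 and 2.11. NRF2 and antioxidant genes were 22 higher and 7 lower of 35 (median 0.38), the metallothioneins MT1X and MT1E and the peroxidase GPX1 rising by 1.34, 1.11 and 0.92. Genes that NRF2 induces went both ways. HMOX1, GCLC and TXNRD1 fell by 2.55, 2.39 and 2.08, and SLC7A11 and GCLM by 0.86 and 0.27. FTL, FTH1, AKR1B10 and GSR rose by 0.66, 0.61, 0.54 and 0.37, and NQO1 was not called (0.10). The aryl hydrocarbon receptor list was 4 higher and 5 lower of 11 (median 0.08). CYP1A1, the marker target of the aryl hydrocarbon receptor, rose from 47.4 and 45.8 to 182 and 165 (1.48 ± 0.07), and the receptor AHR and the target TIPARP fell by 1.80 and 2.19. In the circadian clock, 9 were higher and 11 lower of 21 (median -0.49, -0.07 with totals). BHLHE41 rose from 1.59 and 1.55 to 10.7 and 10 (2.30 ± 0.07), and BMAL1 (42.4 and 44.2 to 6.22 and 6.51) and RORA (a gene of 741 kb) fell by 3.19 and 3.49. ACTB, often used as a reference transcript, fell from 5662 and 5375 to 3111 and 2907 (-1.30 ± 0.06).

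V-ATPase and lysosomal genes were 18 higher and 12 lower of 37, with a median of 0.08 (0.50 with totals). These shares, 48.6 and 32.4%, stand beside 42.6 and 43.2% of all tested genes. The other trafficking and nuclear transport lists leaned lower with TMM. Of 37 nucleoporin and mRNA export genes, 24 were lower and 6 higher (median -0.37, 0.06 with totals), NUP153 and NUP50 falling by 1.83 and 1.67. Of 34 genes of COPI and COPII coats and the exocyst, 21 were lower and 9 higher (median -0.32, 0.10 with totals), and the cargo adaptor SEC24A fell from 9.08 and 10.1 cRPKM to 2.73 and 3.22 (-2.11 ± 0.08). Unconventional myosins, which are motors on actin, were 8 lower and 4 higher of 14 (median -0.39, 0.03 with totals). MYO1E, a gene of 241 kb, fell from 220 and 222 to 39.6 and 41.7 (-2.86 ± 0.05), and MYO10 by 2.98. Kinesins were 15 lower and 10 higher of 26 (median -0.36, 0.06 with totals), KIF2A falling by 2.32 and KIFC2 rising by 0.86, with 5 of the 26 passing only through UVC. Hyaluronan and heparan sulphate genes were 18 lower and 5 higher of 25 (median -0.50, -0.08 with totals). Besides HAS2 and HS3ST2, the hyaluronan-degrading CEMIP fell from 49.9 and 55.2 to 6.53 and 6.84 (-3.40 ± 0.06), and the xylosyltransferase XYLT2 rose from 1.45 and 1.39 to 5.98 and 5.89 (1.64 ± 0.08).

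In the cohesin and anaphase-promoting complex list, 16 of 33 were higher and 12 lower, the cohesin release factor WAPL falling from 23.2 and 24.6 cRPKM to 7.42 and 7.38 (-2.11 ± 0.05) and the condensin subunit NCAPD2 rising by 0.81. Of 41 proteasome subunits, 23 were lower and 12 higher (median -0.16, 0.26 with totals), PSMD12 falling by 1.69. Of 19 nonsense-mediated decay genes, 15 were lower and 1 higher (median -0.49, -0.07 with totals), the release factor ETF1 falling by 1.61 and UPF3A rising by 0.52. The RNA exosome was 7 higher and 6 lower of 16, and its catalytic subunits went apart, DIS3 falling by 1.53 and DIS3L rising by 1.18. Of 39 RAS and PI3 kinase genes, 23 were lower and 10 higher (median -0.43, -0.01 with totals), with RPTOR falling by 1.64 and TSC2 rising by 0.76. The citric acid cycle list was 17 higher and 4 lower of 29, pyruvate carboxylase, PC, falling from 18 and 19.1 to 6.07 and 5.64 (-2.09 ± 0.06) and PDK1, a kinase that inhibits pyruvate dehydrogenase, rising from 3.78 and 3.82 to 9.44 and 9.89 (0.93 ± 0.08).

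Families defined only by the stem of the gene symbol, 214 with at least 8 tested members, gave the same range. HOXC genes, of the homeobox cluster on chromosome 12, were higher in 9 of 9 with a median of 1.48, and HOXA genes in 8 of 9 with a median of 0.98, but 4 of the genes in each cluster had passed only through UVC. HOXC10 rose from 7.24 and 7.05 cRPKM to 20.7 and 19.8 (1.08 ± 0.06) and HOXA9 from 6.54 and 6.40 to 16.4 and 17.7 (0.97 ± 0.07). IFT genes, of intraflagellar transport in cilia, were higher in 15 of 15 with a median of 0.67. At the other end, UTP genes of the small-subunit processome were lower in 11 of 11 (median -0.93), RRP genes in 7 of 8 (-0.97), casein kinase CSNK genes in 8 of 10 (-1.14) and KLF transcription factors in 9 of 12 (-0.99), all with medians below 0 also with totals. CSNK1A1 fell from 168 and 175 to 67.9 and 76.8 (-1.67 ± 0.06) and KLF7 from 15.4 and 16.8 to 3.49 and 3.67 (-2.59 ± 0.06). The largest family, 306 ZNF zinc finger genes, was 78 higher and 184 lower with a median of -0.43, which was -0.01 with totals.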

How the data were processed

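The libraries were prepared with Illumina TruSeq reagents (per the labels), and the submitters' processing notes name Bowtie and hg19. The counting rule, strand and gene annotation are not stated in any source used here. Each gene has, as the authors deposited it, a read count in whole numbers and an RPKM corrected by an effective length, here cRPKM. Near-identical, overlapping and antisense genes can share reads. All 19847 genes listed were read, 354 of which had no values. Counts of the 11816 genes tested were fitted with edgeR 4.0.16 in R 4.3.3 at an adjusted p under 0.05 (quasi-likelihood F test, TMM, 3 group means over 6 libraries, two-sided, Benjamini-Hochberg over all genes). The test was tested on simulated data in which few genes changed. Most genes were called here, so the simulation does not bear on the choice of scaling. The TMM factors were 0.886 and 0.884 for control and 1.18 and 1.19 for UVC. The common biological coefficient of variation was 4.60%. Spans, exons and 3'UTRs are those of GENCODE v29, a GRCh38 annotation, and are used as gene properties only. The genes named are the 12 largest rises and falls, up to 3 each way per list and 2 per symbol stem, called alike with both scalings, at 5 scaled cRPKM in the higher group and without overlap of the groups, plus the genes that crossed from under 1 to 5 cRPKM and a set chosen by name; other genes were chosen after their values were seen. The adjusted p was at most 0.0243 for each of the 517 genes this rule names. Members and lists were chosen with earlier results of these data known. Alternatives used limma 3.58.1 and DESeq2 1.42.0. Splicing was not analysed here. Some genes and lists are not reported here.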

Additional observations from a re-analysis of the deposited data

How the results depend on the processing

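The 4 counts (higher, lower, and at least 2-fold each way) were recomputed under the alternatives. Library totals gave 2793 genes at least 2-fold higher and 1275 at least 2-fold lower, limma on log2(cRPKM + 0.1) 2683 and 1247, and limma on log2(cRPKM + 1) 1010 at least 2-fold lower. A filter of 5 cRPKM gave 718 at least 2-fold higher and no filter gave 2175. DESeq2 gave 4776 higher and 5012 lower genes, all of them among the main calls, and the fit of the 4 libraries alone 5209 and 4887. Leaving out each library in turn gave 4661 to 4920 higher and 4846 to 5083 lower genes, 1151 to 1218 at least 2-fold higher and 2134 to 2240 at least 2-fold lower. With the replicate number as a block, 5045 genes were higher and 5122 lower. Same-numbered libraries did not deviate together (r = -0.0163 across genes), but with 2 libraries a group this cannot tell whether the numbers pair them. KRT14 turned direction, to 0.134 with totals and 0.135 with limma at either pseudocount, and POLR2A and ERCC6 lost their call with totals. Of the 517 named genes, 514 kept direction and call with totals. The naming rule required this of most of them, so it is no check of the scaling. Over all tested genes, 72.2% were called in the same direction with both scalings. Of the 517, 1, IFNL3, moved by over 1.5-fold when a control library was left out.
With 2 libraries a group and 3 residual degrees of freedom, the spread rests on few libraries. The deposited counts carry no measure of RNA per cell, so a general loss of RNA cannot be seen in either scaling. Genes under a few reads per library, such as IFNL3 and several histones, are imprecise, and genes that passed the level filter through 1 group had to differ.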
